A study of Mus musculus with 4 samples.

Results

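The proteasome genes of mouse heart and tibialis anterior (TA), a fast hindlimb muscle, were described from 4 libraries. Members were all gene symbols that begin with Psm, a letter from a to g and a number, which gave 42 of the 11237 symbols listed in either tissue. All 42 were among the 10791 symbols of heart and 40 among the 10352 of TA, with Psmb9 and Psmc3ip listed in heart only. The animals were male C57BL/6J mice of 10 weeks with no genetic change or treatment named in the labels, and the labels do not say how many animals went into a library. Pieces of frozen whole tissue were homogenised with cycloheximide, and the lysate served both for total RNA and for ribosome-protected fragments (RPF), the stretches of mRNA that ribosomes cover during nuclease digestion. Each tissue had 1 RPF and 1 RNA library, so differences lack a replicate check and are given without p-values. Values are RPM, a gene's coding reads scaled to the coding total of the library, and intervals are 95% intervals that cover counting error only.

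The proteasome is the protease that degrades proteins marked with ubiquitin, and in striated muscle it carries out much of the breakdown of contractile proteins during atrophy and turnover. Its barrel, the 20S core, has outer rings of alpha subunits (Psma genes) that gate the entrance and inner rings of beta subunits (Psmb genes), of which Psmb5, Psmb6 and Psmb7 hold the active sites. The 19S cap on the 26S particle has a base of ATPases (Psmc genes) that unfold the substrate and a lid (Psmd genes) that removes ubiquitin. Interferon induces Psmb8, Psmb9 and Psmb10, which take the places of Psmb5, Psmb6 and Psmb7 in the immunoproteasome, and the cap formed by Psme1 and Psme2. In the cell, dedicated chaperones (Psmg genes for the core, Psmd5, Psmd9 and Psmd10 for the base) assemble these parts.

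By role the 42 members were 7 alpha subunits, 6 standard beta subunits, 3 inducible beta subunits, 4 ATPases, 2 other base subunits, 8 lid subunits, 3 base chaperones, 4 activators, the regulator Psmf1, 3 core chaperones and Psmc3ip. Psmc3ip matched by its name alone: it encodes a cofactor of meiotic recombination and is no proteasome subunit. RefSeq names 51 protein-coding genes whose symbols fit the rule, of which 42 were listed. Psma8, Psmb1, Psmb11, Psmc1, Psmc6, Psmd2, Psme2b, Psme3ip1 and Psmg1 were not analysed here. Of the 31 standard subunits of the 26S particle that carry a Psm symbol, 27 were therefore measured, and they are called the standard subunits below. The subunits Adrm1 and Shfm1 are named otherwise and are not among them. RefSeq also names 6 pseudogenes after Psma5, Psmb5, Psmb6 and Psmb7, and reads of near-identical copies may have been shared with these parents and between Psme2 and Psme2b.

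The stretches before the start sites of 2 standard catalytic genes and of the inducible genes that replace them are shown because the inducible share of these pairs is given below, in both tissues for Psmb8 with Psmb5 and in heart for Psmb9 with Psmb6. Each is the 250 bases upstream of the RefSeq start, 5′ to 3′ on the gene's strand, on build GRCm38.p6, which is not the build of the deposited values. The windows are chr14:54617996-54618245 (minus strand) for Psmb5, chr17:34197945-34198194 (plus) for Psmb8, chr11:70525107-70525356 (plus) for Psmb6 and chr17:34187331-34187580 (minus) for Psmb9. Capitals mark matches to TGACNNNGC, the core of the antioxidant response element, in Psmb5 and Psmb6, and to TTCNNNGAA, the site type bound by STAT factors, in Psmb8.
Psmb5: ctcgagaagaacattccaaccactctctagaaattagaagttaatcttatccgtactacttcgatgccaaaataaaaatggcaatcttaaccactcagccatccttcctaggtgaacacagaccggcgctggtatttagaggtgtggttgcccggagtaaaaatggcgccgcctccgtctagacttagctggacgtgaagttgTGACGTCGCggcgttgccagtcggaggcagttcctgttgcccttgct
Psmb8: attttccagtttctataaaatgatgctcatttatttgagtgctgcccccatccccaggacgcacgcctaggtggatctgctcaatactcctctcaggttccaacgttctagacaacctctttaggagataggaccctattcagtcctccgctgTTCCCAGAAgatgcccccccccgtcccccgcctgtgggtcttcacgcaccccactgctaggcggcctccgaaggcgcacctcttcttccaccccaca
Psmb6: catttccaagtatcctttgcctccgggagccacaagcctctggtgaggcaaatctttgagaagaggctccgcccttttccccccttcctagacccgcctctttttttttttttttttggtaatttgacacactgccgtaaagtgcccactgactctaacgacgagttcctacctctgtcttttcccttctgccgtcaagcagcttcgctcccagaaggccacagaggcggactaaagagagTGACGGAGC
Psmb9: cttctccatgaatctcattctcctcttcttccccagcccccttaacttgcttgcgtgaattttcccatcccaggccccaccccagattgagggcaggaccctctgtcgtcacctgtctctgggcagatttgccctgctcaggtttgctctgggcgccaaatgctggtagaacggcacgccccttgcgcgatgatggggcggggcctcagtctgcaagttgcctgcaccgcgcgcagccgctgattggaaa

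The match began 47 bases before the start in Psmb5, 9 bases before it in Psmb6 and 97 bases before it in Psmb8, and the Psmb9 window held no match to the motifs searched. On both strands, with overlaps between motifs allowed, TGACNNNGC was found in 4 of the 36 members with a window (Psmb5, Psmb6, Psmd9 and Psmd12), a share of 11.1% against 14.3% of the listed genes and 11.5% of all genes in the RefSeq table. TTCNNNGAA was found in 1 of 36 members, or 2.78% against 7.23% of listed genes. A pair of GAAA runs set 2 bases apart, a core of interferon-responsive elements, was found in Psmb3, Psmd4 and Psmd9, or 8.33% of members against 3.04% of listed genes. A match describes letters only.

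From the steps between low values, 1 RPM of RPF stood for 28.2 reads in heart and 28.6 in TA, and 1 RPM of RNA for 9.34 and 16.1 reads, and the coding reads of a library numbered from 9286842 in heart RNA to 28556421 in TA RPF. The tissue labels were checked on marker genes. The 9 cardiomyocyte markers made up 10.2% of heart coding RNA reads, and the 7 listed in TA made up 0.0249% of TA reads. The 9 fast fibre markers made up 19.4% in TA, and the 5 listed in heart made up 0.0168% there. Markers that were not listed are left out of these sums. In bulk tissue, fewer cells of a type and less RNA per cell cannot be told apart.

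The proteasome genes together took similar parts of all 4 libraries. Their summed coding reads were 0.461% of heart RNA, 0.437% of heart RPF, 0.424% of TA RNA and 0.428% of TA RPF. The 27 standard subunits made up 0.290% of heart RNA, 0.334% of heart RPF, 0.305% of TA RNA and 0.380% of TA RPF. In both tissues their share of RPF was above their share of RNA. The 4 activators went the other way, with 0.158% of heart RNA, 0.0894% of heart RPF, 0.112% of TA RNA and 0.0380% of TA RPF. The similar totals thus add up groups whose shares differed between libraries.

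Levels of different genes were compared per kilobase of coding sequence. The alpha subunits had median RNA levels of 138 RPM per kilobase in heart and 129 in TA. The highest alpha subunit in heart RNA was Psma6 at 181 RPM per kilobase and the lowest in both tissues was Psma5, at 94.8 in heart and 87.7 in TA. Psma3 was highest in TA RNA at 228 RPM per kilobase. In RPF, Psma7 was highest at 273 RPM per kilobase in heart and 197 in TA, and Psma4 lowest at 66.7 and 76.8.

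Among the standard beta subunits, Psmb7, which cuts after basic residues, had the highest RNA level of any member in both tissues, 246 RPM per kilobase in heart and 308 in TA. Psmb5, the subunit with chymotrypsin-like activity, had the lowest beta RNA level at 74.1 and 69.5 RPM per kilobase. In heart RPF the highest beta subunit was Psmb4 at 192 RPM per kilobase, while Psmb7 was at 162. In TA RPF, Psmb7 was highest at 302.5 RPM per kilobase. Psmb5 was the lowest beta subunit in RPF too, at 90.9 RPM per kilobase in heart and 124 in TA.

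By their medians, the cap subunits had lower RNA levels per kilobase than the core subunits. The 4 ATPases had median RNA levels of 77.9 RPM per kilobase in heart and 86.2 in TA, and the highest of them was Psmc3 at 159 and 152. The 8 lid subunits had median RNA levels of 65.9 and 65.8 RPM per kilobase. Psmd14, the lid's deubiquitinating enzyme, was the lowest standard subunit in heart, at 54.3 RPM per kilobase in RNA and 65.5 in RPF. In TA the lowest were Psmd3 in RNA at 51.3 RPM per kilobase and Psmd13 in RPF at 67.6, both lid subunits. Psmd4, the base subunit that binds ubiquitin chains, had the highest RPF level of the cap, at 167 RPM per kilobase in heart and 249 in TA.

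The other members lay below the standard subunits except for activators. The inducible beta subunits ranged from 6.06 (Psmb9) to 28.2 (Psmb10) RPM per kilobase in heart RNA, and the base chaperones from 12.6 (Psmd10) to 19.2 (Psmd5). Psmf1, also called PI31, which binds the core, was at 16.8 RPM per kilobase in heart RNA and 9.36 in TA RNA. Of the core chaperones, Psmg2 was at 33.8 and 17.0 RPM per kilobase in RNA and Psmg3 at 7.66 and 4.63. Psme4, a large single-chain activator also called PA200, had 242 RPM per kilobase in heart RNA and 190.0 in TA RNA.

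**Figure D1:**
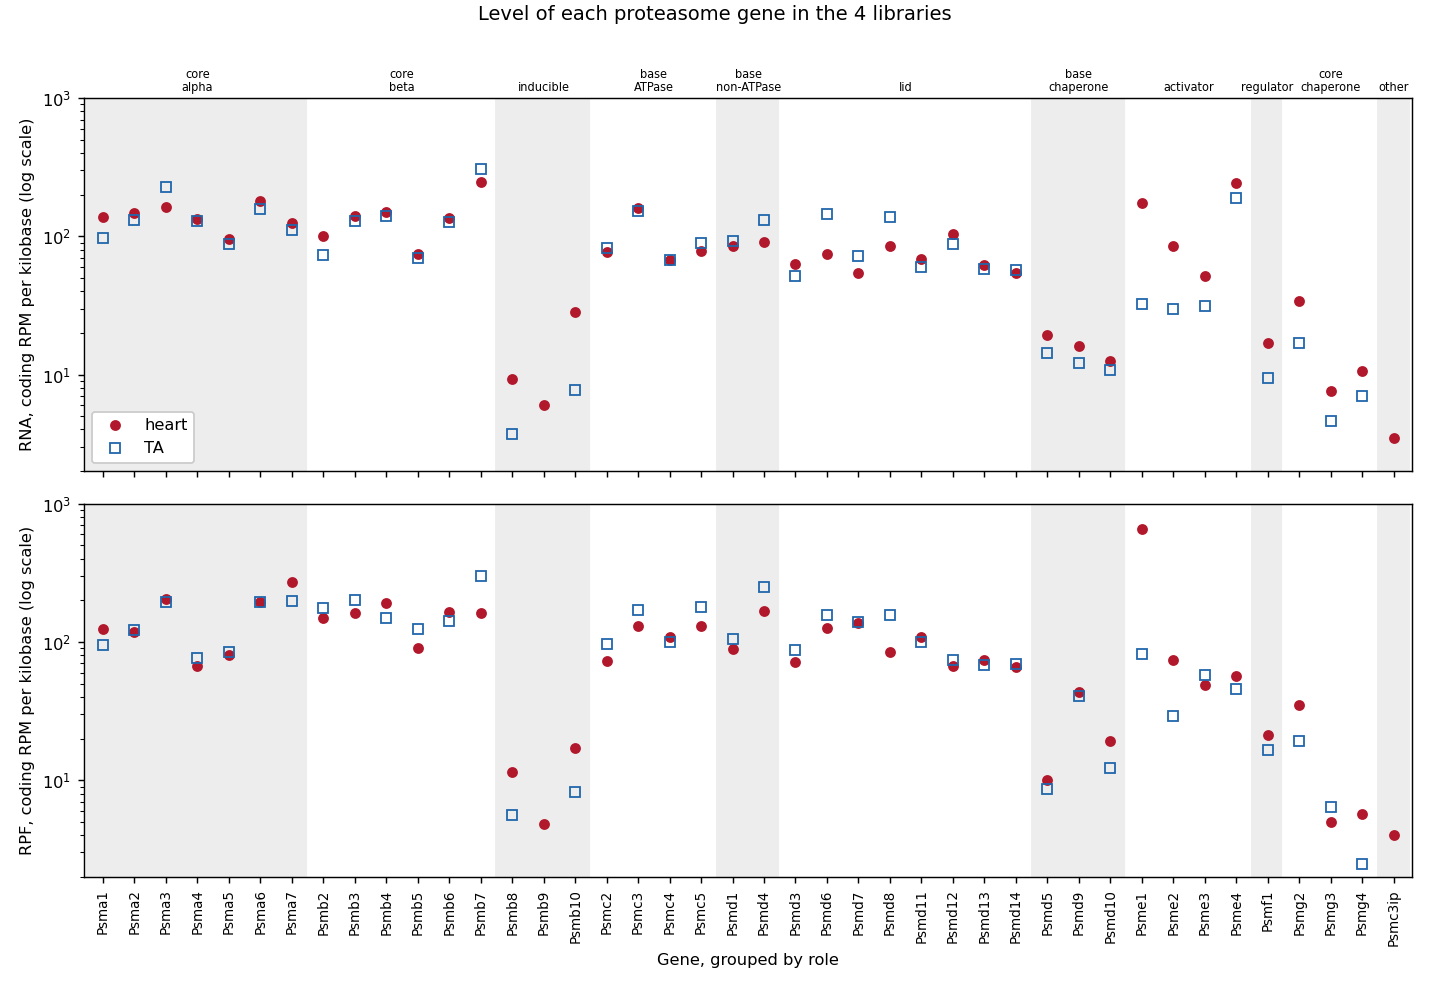
Level of each of the 42 members on a log scale of coding RPM per kilobase, RNA in the upper panel and RPF in the lower, with 1 point per library (filled circles heart, open squares TA). The standard subunits lie together at 51.3 RPM per kilobase or more, and the inducible subunits and chaperones lie below them. Psme1 in heart RPF is the highest point at 653 RPM per kilobase.

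The levels of the standard subunits were described by their spread. Core and cap subunits were pooled for this, so the spread also holds the difference between their median levels. In heart the SD of log2 RPM per kilobase over the 27 subunits was 0.58 in RNA and 0.57 in RPF, beside 2.06 and 2.37 over all listed genes. In TA it was 0.62 in RNA and 0.59 in RPF, beside 2.19 and 2.42 over all genes. The spread among subunits was thus of similar size in RNA and RPF.

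The highest and lowest standard subunit lay 4.54-fold apart in heart RNA, 4.17-fold in heart RPF, 6.00-fold in TA RNA and 4.47-fold in TA RPF. Within 2-fold of the median subunit were 26 of 27 in both heart libraries, 25 in TA RNA and 24 in TA RPF. Within the particle, alpha subunits had an SD of 0.30 in heart RNA and 0.74 in heart RPF (log2 RPM per kilobase), and beta subunits 0.58 and 0.37. Lid subunits had SDs of 0.33 in heart RNA and 0.42 in heart RPF, against 0.59 and 0.53 in TA. The order of RNA levels and that of RPF levels were alike only in part: across the 27 genes Pearson's r of log2 levels was 0.57 in heart and 0.70 in TA, a description over genes that share their libraries.

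Translational efficiency was taken as log2 of RPF over RNA for each coding sequence, minus the median gene of that tissue, so that 0 is the median gene. In heart, 34 of 42 members were above 0 and the median member was at 0.64. At least 2-fold higher were 11 of 42 members, where 16% of all 10680 genes were, and 1 member was at least 2-fold lower, where 17.8% of genes were. In TA, 36 of 40 members were above 0, with a median of 0.47. At least 2-fold higher in TA were 12 members, where 15.4% of 10029 genes were, and 2 were at least 2-fold lower, where 18.7% of genes were. Without removal of the median gene, which lay at -0.44 in heart and -0.26 in TA, the member medians were 0.20 and 0.21 and 4 members in each tissue were at least 2-fold higher, where 7.98% of genes in heart and 10.2% in TA were.

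Coding length went along with efficiency across all genes (Spearman's rho -0.39 in heart over 10680 genes and -0.35 in TA over 10029), and members were short, with a median of 789 coding nucleotides in heart beside 1431 over all genes. With the trend over all genes removed, the member median was 0.28 in both tissues, and 8 members in heart and 5 in TA were at least 2-fold higher, where 13.1% and 13.5% of genes were, so the TA count was near the share of all genes. Among the members themselves rho was -0.02 in heart and -0.09 in TA. With the trend removed, Psmb2 (0.44), Psmd10 (0.63) and Psmd11 (0.97) lay inside 2-fold in heart. In TA, Psma7 (0.72), Psmb2 (0.95), Psmb5 (0.74), Psmd7 (0.99), Psmd11 (0.90), Psme3 (0.78) and Psmf1 (0.74) did. The 5 that stayed past 2-fold in TA were Psmc5, Psmd3, Psmd4, Psmd9 and Psme1. Efficiencies of members given below hold the length trend unless stated otherwise. The part of length in the efficiency of single members was not tested.

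Among the alpha subunits, Psma7 had the highest efficiency, 1.56 in heart (1.46 to 1.66) and 1.10 in TA (1.01 to 1.19). Its levels were 203 RPM of RPF and 93.2 RPM of RNA in heart, and 146 RPM of RPF and 81.8 RPM of RNA in TA. Psma4 had the lowest efficiency of the alpha ring, -0.55 in heart (-0.67 to -0.43) and -0.48 in TA (-0.59 to -0.39). Its levels were 52.0 RPM of RPF and 103.6 RPM of RNA in heart, and 59.9 RPM of RPF and 100.5 RPM of RNA in TA. Per kilobase, the RNA levels of these neighbours in the ring lay close in heart, at 126 RPM for Psma7 and 133 RPM for Psma4, while their RPF levels were 273 and 66.7 RPM.

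Of the beta subunits, Psmb2 reached efficiencies of 1.00 in heart (0.87 to 1.14) and 1.52 in TA (1.40 to 1.64). Psmb5 was at 0.73 (0.60 to 0.87) and 1.09 (0.98 to 1.20). Psmb6, which cuts after acidic residues, was at 0.71 (0.61 to 0.82) and 0.41 (0.32 to 0.50). Psmb7 had the lowest efficiency of the 6 in both tissues, -0.16 in heart (-0.24 to -0.08) and 0.23 in TA (0.18 to 0.29). Of the 3 standard catalytic subunits, the one with the highest RNA level was thus the one with the fewest RPF per RNA.

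In the base, Psmc5 had efficiencies of 1.18 in heart and 1.27 in TA, Psmc4 of 1.13 and 0.83, Psmc2 of 0.35 and 0.49, and Psmc3 of 0.15 and 0.43. Psmd4 reached 1.30 in heart (1.21 to 1.41) and 1.20 in TA (1.13 to 1.26), and Psmd1, a large scaffold of the base, 0.50 and 0.44. In the lid, Psmd7, the partner of the deubiquitinase Psmd14, had the highest efficiency, 1.78 in heart (1.64 to 1.92) and 1.22 in TA (1.13 to 1.32). Psmd14 itself was at 0.71 and 0.53. The lid subunits Psmd11 (1.10 and 1.02) and Psmd6 (1.19 and 0.37) were at least 2-fold higher than the median gene in heart, Psmd3 (0.64 and 1.03) and Psmd11 in TA. The lowest lid subunit was Psmd12, at -0.19 in heart and 0.01 in TA.

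Among the base chaperones, Psmd9 had an efficiency of 1.89 in heart (1.59 to 2.21) and 2.00 in TA (1.74 to 2.30), the highest of all members in TA. Psmd9 had 29.1 RPM of RPF and 10.6 RPM of RNA in heart, and 27.0 RPM of RPF and 8.01 RPM of RNA in TA. Psmd10, also known as gankyrin, was at 1.06 in heart and 0.45 in TA, and Psmd5 at -0.49 and -0.47. The 3 base chaperones thus spanned from below the median gene to more than 2-fold above it.

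The activators held both ends of the range in heart. Psme1 had 485.6 RPM of RPF and 130 RPM of RNA in heart, and 60.7 RPM of RPF and 24.1 RPM of RNA in TA. Its efficiency was 2.34 in heart (2.26 to 2.43), above 98.5% of genes, and 1.59 in TA (1.43 to 1.75). Psme2, whose product joins that of Psme1 in the same ring, had efficiencies of 0.26 in heart (0.11 to 0.40) and 0.24 in TA (0.05 to 0.44). Psme3, which forms a nuclear cap of its own, was at 0.37 in heart (0.19 to 0.54) and 1.15 in TA (0.98 to 1.32).

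Psme4 had the lowest efficiency of the members in both tissues, -1.65 in heart (-1.69 to -1.61) and -1.79 in TA (-1.83 to -1.75). It had 314 RPM of RPF and 1339.7 RPM of RNA in heart, and 254 RPM of RPF and 1049.9 RPM of RNA in TA. Its coding sequence of 5526 nucleotides was long, and with the length trend removed the efficiency was -0.83 in heart and -0.99 in TA, inside the 2-fold bound in both. The ratio of Psme4 to Psme1 per kilobase was 1.39 in heart RNA (1.31 to 1.48) and 0.0871 in heart RPF, and 5.87 in TA RNA (5.30 to 6.50) and 0.563 in TA RPF. Psme4 thus stood above Psme1 in the RNA of both tissues and below it in RPF.

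Of the remaining regulators, Psmf1 was more than 2-fold above the median gene in TA and Psmg4 more than 2-fold below it. Psmf1 was at 0.78 in heart (0.49 to 1.07) and 1.08 in TA (0.79 to 1.39). Among the core chaperones, Psmg2 was at 0.49 and 0.42, and Psmg3 at -0.15 in heart (-0.89 to 0.56) and 0.71 in TA (0.08 to 1.44). Psmg4 was at -0.41 in heart (-1.06 to 0.20) and -1.13 in TA (-1.99 to -0.48). The Psmg4 value in TA rested on 26 RPF and 41 RNA reads, and with a pseudocount of 1 RPM it was -0.67. Psmc3ip had an efficiency of 0.65 in heart (-0.05 to 1.44) from 2.62 RPM of RPF and 2.25 RPM of RNA.

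**Figure D2:**
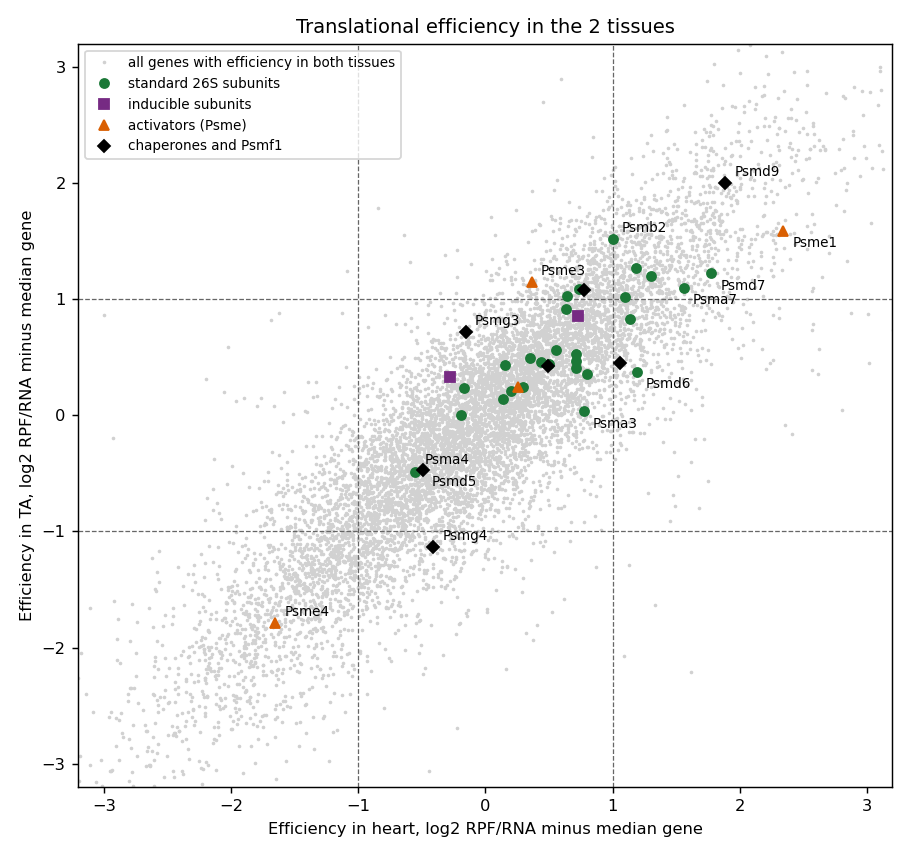
Translational efficiency (log2 RPF over RNA minus the median gene) in heart on the x axis and in TA on the y axis, with grey points for all genes that have both values and coloured points for the 40 members listed in both tissues. Dashed lines mark 2-fold. Psme1 lies far to the right at 2.34 in heart, Psme4 at the lower left at -1.65 and -1.79, and most standard subunits lie above 0 on both axes.

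The tissues were then compared gene by gene, as log2 of heart over TA minus the median gene. The median gene was 0.70 higher in heart in RNA and 0.60 higher in RPF on the log2 scale of RPM, so these values are relative to that shift. In RNA, all 27 standard subunits were below the median gene, with a median of -0.62 and a range from -1.66 to -0.19, whereas in RPM as deposited their median was 0.08 and none was 2-fold apart. Among all 40 members tested the median was -0.52 (0.17 as deposited) and 33 were below 0. At least 2-fold lower in heart RNA were 6 members, where 10.4% of 9843 genes were, and 2 were at least 2-fold higher, where 13.5% of genes were. With no median removed the split was 4 higher and 0 lower for members and 3448 higher and 382 lower for all genes.

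The 6 low members in RNA were standard subunits, 3 of them of the lid. Psmd6, a lid subunit, had 86.9 RPM of RNA in heart and 170 RPM in TA, a difference of -1.66 (-1.78 to -1.55). Psmd8, also of the lid, had 90.2 and 145 RPM, a difference of -1.38 (-1.50 to -1.27). Psmd4 had 103 and 146 RPM of RNA (-1.21), Psma3 had 124 and 173 RPM (-1.18), Psmd7 had 52.1 and 69.3 RPM (-1.11) and Psmb7 had 204 and 255 RPM (-1.02). For these 6 genes the RPM itself was lower in heart, so their direction was the same with and without removal of the median. At the other end of the standard subunits, Psma1 was at -0.19 (-0.31 to -0.06) with 109 and 76.3 RPM, higher in heart in RPM as deposited.

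In RPF the standard subunits were again all below the median gene, with a median of -0.73, which was -0.13 in RPM as deposited. Over the 40 members the RPF median was -0.61, and -0.01 as deposited. At least 2-fold lower in heart RPF were 6 members, where 12% of 9843 genes were, and 1 was at least 2-fold higher, where 11.9% of genes were. With no median removed, 5 members were higher and 0 lower, beside 2961 and 498 of all genes. Psmb7 was lowest at -1.50 (-1.56 to -1.44), with 134 RPM of RPF in heart and 250.5 RPM in TA. Psmd8 was at -1.49 (-1.56 to -1.42), with 90.1 and 167 RPM of RPF.

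The other low members in RPF were Psmd4 (-1.18), Psmc5 (-1.06), Psmb5 (-1.04) and Psmc2 (-1.01). Psmd4, with 187 and 280.4 RPM of RPF, was lower in heart in both kinds of library. Psmc5 had RPF levels of 159 RPM in heart and 219 RPM in TA, Psmb5 had 71.7 and 97.7, and Psmc2 had 104 and 138. Psmc5, Psmb5 and Psmc2 lay within 2-fold in RNA, at -0.89, -0.60 and -0.79. By its median of -0.59, the alpha ring was the group of standard subunits nearest to the median gene in RPF, with values from -0.80 (Psma4) to -0.13 (Psma7), and Psmb4 was the nearest beta subunit at -0.23.

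**Figure D3:**
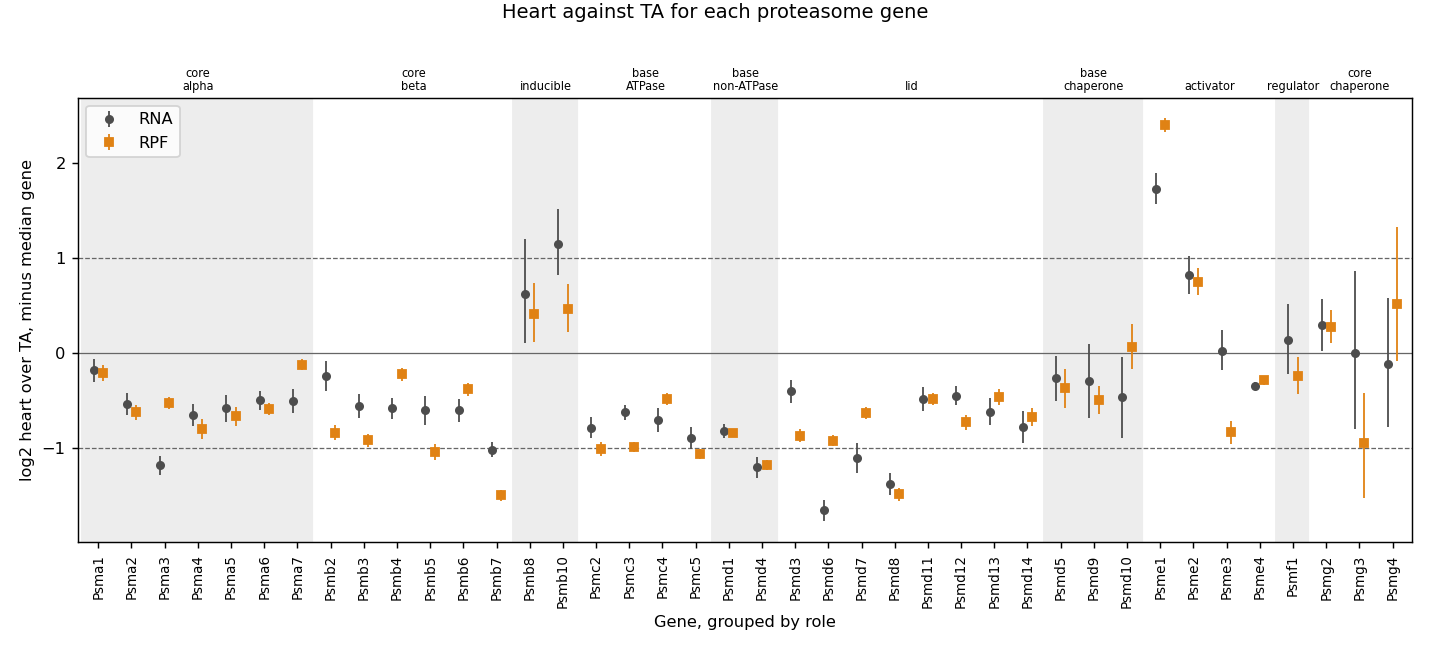
Log2 of heart over TA for the 40 members listed in both tissues, minus the median gene, with grey circles for RNA, orange squares for RPF, bars for 95% counting intervals and dashed lines at 2-fold. All standard subunits lie below 0 (medians -0.62 in RNA and -0.73 in RPF, but 0.08 and -0.13 in RPM as deposited), while Psmb8, Psmb10, Psme1 and Psme2 lie above 0 in both.

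The inducible members and their cap went the other way. Psme1 was 1.73 higher in heart in RNA (1.57 to 1.90) and 2.40 higher in RPF (2.33 to 2.48) on the log2 scale, the largest heart excess of any member in each. Psme2 had 60.5 RPM of RNA in heart and 21.1 in TA, a difference of 0.82 (0.62 to 1.02), and 53.2 and 20.9 RPM of RPF, a difference of 0.75 (0.61 to 0.89). Psmb10 had 23.0 and 6.33 RPM of RNA, a difference of 1.15 (0.82 to 1.52), and 13.96 and 6.65 RPM of RPF, a difference of 0.46 (0.22 to 0.73).

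Psmb8 had 7.71 and 3.04 RPM of RNA, a difference of 0.62 (0.10 to 1.20), and 9.42 and 4.65 RPM of RPF, a difference of 0.40 (0.12 to 0.73). Psmb9 had 3.96 RPM of RNA and 3.15 RPM of RPF in heart and was not listed in TA, so it has no comparison. Leaving the median in raises every value, by 0.70 in RNA and 0.60 in RPF, so it could not change these directions. All 4 genes listed in both tissues were then at least 2-fold higher in heart in RNA and in RPF. Of all genes, 35.0% in RNA and 30.1% in RPF were. Psme3 and Psme4 did not share that pattern: Psme3 was at 0.02 in RNA (-0.18 to 0.24) and -0.84 in RPF (-0.96 to -0.72), which were 0.72 and -0.24 as deposited, and Psme4 at -0.34 and -0.29 (0.35 and 0.31 as deposited).

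Within each catalytic pair the inducible subunit was the minor one in all libraries where it was listed. Psmb8 made up 11.2% of Psmb8 plus Psmb5 per kilobase in heart RNA (8.86 to 13.9%) and 11.2% in heart RPF (9.93 to 12.5%), against 5.03% (3.75 to 6.61%) in TA RNA and 4.35% (3.66 to 5.14%) in TA RPF. Psmb10 made up 10.3% of its pair with Psmb7 in heart RNA (9.01 to 11.7%) and 9.56% in heart RPF (8.68 to 10.5%), against 2.46% (2.01 to 2.98%) and 2.62% (2.26 to 3.01%) in TA. Psmb9 made up 4.27% of its pair with Psmb6 in heart RNA (3.03 to 5.84%) and 2.86% in heart RPF (2.30 to 3.50%). The shares in RNA and RPF of the same tissue had overlapping intervals for all pairs, and the heart and TA intervals of Psmb8 and Psmb10 did not overlap. The intervals are exact binomial ones (Clopper-Pearson) and cover counting error only, so they do not show how far replicate libraries would vary. The tissue difference in these shares was not tested, and it was not set beside other genes.

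**Figure D4:**
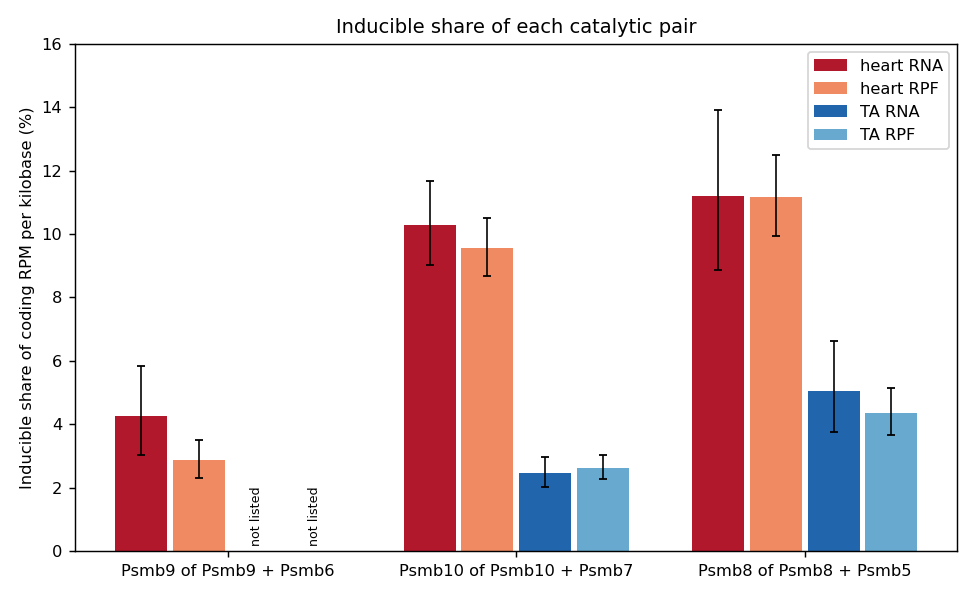
Share of each inducible subunit in its catalytic pair, in percent of summed coding RPM per kilobase, with 1 bar per library from 0 and 95% binomial intervals for counting error. The heart bars of Psmb8 (11.2% in RNA and RPF) and Psmb10 (10.3% and 9.56%) stand above the TA bars (5.03% and 4.35%, 2.46% and 2.62%). Psmb9 was not listed in TA.

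Psme1 and Psme2, whose products alternate in 1 ring, were close in TA RNA, with a per-kilobase ratio of 1.10 (0.944 to 1.27). In heart RNA the ratio was 2.06 (1.86 to 2.28), in TA RPF 2.79 (2.54 to 3.07) and in heart RPF 8.76 (8.30 to 9.24). Psme1 thus had the higher level in heart RNA and in both RPF libraries. Reads shared between Psme2 and Psme2b could alter these ratios, which was not tested.

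Immune and endothelial cells express the inducible genes, and markers of both were higher in heart. Of 14 macrophage and leukocyte markers, 13 were listed in heart and 11 in TA, with summed RNA of 395 RPM in heart and 77.6 RPM in TA and summed RPF of 626 and 248.5 RPM. Cd14 and Fcer1g were not listed in TA, and Laptm5 in neither tissue. Of the 11 tested, 10 were at least 2-fold higher in heart RNA and 5 in RPF, where 13.5% and 11.9% of all genes were. Their medians were 1.74 and 0.94. The 12 endothelial markers summed to 1600.4 RPM of RNA in heart and 406.7 RPM in TA. Of these, 7 were at least 2-fold higher in RNA and 1 in RPF, so the RPF count was no excess over the share of all genes. All 12 were above the median gene in RNA and in RPF, with medians of 1.13 and 0.54. Of the antigen-processing and interferon genes, all 11 tested were above the median gene in RNA, with a median of 0.83, and 10 of 11 in RPF, with a median of 0.39. Among them Tap2, a peptide transporter subunit, was past 2-fold in RNA at 1.03. The part of these cells in the heart levels of Psmb8, Psmb9, Psmb10, Psme1 and Psme2 was not tested.

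The difference in efficiency between the tissues was small for most members. The median difference, heart minus TA, was -0.005 over 40 members, with 19 above 0 and 21 below. At least 2-fold higher in heart were 0 of 40 members, where 4.07% of 9635 genes were, and at least 2-fold lower were 0, where 2.34% of genes were. The widest differences above 0 were Psmd6 at 0.82 (0.69 to 0.95), Psme1 at 0.75 (0.57 to 0.93) and Psma3 at 0.74 (0.62 to 0.86). In Psmd6 and Psma3, heart was further below the median gene in RNA than in RPF: Psma3 had RPF levels of 156 RPM in heart and 148 RPM in TA, and Psmd6 had 146 and 183.

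The widest differences below 0 were Psmg3 at -0.87 (-1.94 to 0.09), Psme3 at -0.78 (-1.03 to -0.54) and Psmb10 at -0.61 (-1.05 to -0.17). Psmg3 rested on 26 to 67 reads per library, and its interval held 0. Psme3 had RPF levels of 37.2 RPM in heart and 43.9 RPM in TA, with 39.2 and 23.7 RPM of RNA. Among the beta subunits, Psmb2 was at -0.51 (-0.69 to -0.33), Psmb7 at -0.40 (-0.50 to -0.30), Psmb5 at -0.36 (-0.54 to -0.18) and Psmb3 at -0.28 (-0.43 to -0.13), while Psmb4 was at 0.44 (0.31 to 0.57) and Psmb6 at 0.30 (0.16 to 0.44). Of the 7 alpha subunits, the 5 other than Psma3 and Psma7 lay between -0.07 and 0.05.

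The 3 core chaperones had a median RNA difference of 0.00 after rounding, which was 0.69 as deposited. Psmg2 had 26.7 RPM of RNA in heart and 13.4 in TA, a difference of 0.29 (0.02 to 0.56) that was 0.99 as deposited, and 27.6 and 15.0 RPM of RPF (0.27, from 0.11 to 0.45). Psmg3 had 2.78 and 1.68 RPM of RNA (0.00 after rounding, from -0.80 to 0.87) and 1.81 and 2.34 RPM of RPF (-0.95, from -1.53 to -0.43). Psmg4 had 3.85 and 2.55 RPM of RNA (-0.12, from -0.79 to 0.58) and 2.09 and 0.91 RPM of RPF (0.52, from -0.09 to 1.33). Of the base chaperones, Psmd9 was at -0.30 in RNA (-0.69 to 0.10), Psmd5 at -0.27 (-0.50 to -0.03) and Psmd10 at -0.47 (-0.89 to -0.05), with a median of 0.40 as deposited. Psmf1 was at 0.14 in RNA (-0.22 to 0.52) and -0.25 in RPF (-0.44 to -0.05).

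Reads on untranslated parts of members were mostly few. The median member had 9.01% of its heart RNA reads and 9.51% of its TA RNA reads on the 3′ UTR, beside 30.5% and 32.4% for the median listed gene. The highest shares were those of Psme3, with 59.3% in heart and 57.8% in TA, and Psmf1, with 56.0% and 55.5%, and Psmd9, Psmd10 and Psmg3 were also above the median gene in both tissues. On the 5′ UTR the median member had 0.498% of its RPF reads in heart and 0.153% in TA, beside 1.85% and 1.22% for the median gene.

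Some members carried RPF on the 5′ UTR. Psme4 had 19.0 RPM of RPF there in heart and 19.5 RPM in TA, against 0.11 RPM of RNA in heart and a listed RNA value of 0 in TA. Psmd14 had 7.05 and 7.59 RPM of 5′ UTR RPF. Psma5 had 14.5 RPM in heart and 6.19 in TA, and Psmb2 had 11.5 and 1.78. Psmb10 had the largest 5′ UTR shares of RNA among members, 26.9% of its RNA reads in heart and 10.8% in TA, and 22.9% of its RPF reads in heart lay there too.

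Genes that act with the proteasome were read beside the members. Of 25 partners searched for (ubiquitin receptors, deubiquitinases, assembly factors and regulators of proteasome genes), 22 were listed and tested. In heart RNA 0 were at least 2-fold higher and 2 lower, where 13.5% and 10.4% of all genes were, and their median was -0.40. As deposited 1 was higher and 0 lower, where 35.0% and 3.88% of genes were, and the median was 0.29. With the median gene removed, the low ones were Zfand5 and AI314180. Zfand5, an activator of the 26S particle, was at -1.64 in RNA and -1.72 in RPF. AI314180, the adaptor also called Ecm29, was at -1.15 and -1.30. In RPF, Akirin2, which brings proteasomes into the nucleus, was higher at 1.11, and its efficiency difference of 1.13 was past 2-fold. Adrm1, a ubiquitin receptor of the base, was at -1.10 in RPF and its deubiquitinating partner Uchl5 at -1.05. Nploc4, a cofactor of the unfoldase Vcp, was at -1.28. In all, 5 partners were lower and 1 higher in RPF, where 12% and 11.9% of all genes were. As deposited 1 was lower and 1 higher, where 5.06% and 30.1% of genes were. Nfe2l1, the transcription factor that drives proteasome genes when the protease is blocked, was at -0.62 in RNA and -0.45 in RPF.

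Of the 14 muscle ubiquitin ligases, 1 was at least 2-fold higher and 4 were lower in heart RNA, where 13.5% and 10.4% of all genes were. As deposited 2 were higher and 0 lower, where 35.0% and 3.88% of genes were. Fbxl22, a sarcomeric F-box protein, had 48.4 RPM of RNA in heart and 1.55 in TA, a difference of 4.18, and 137 and 3.22 RPM of RPF. With the median removed, the low ones were Cul3 (-1.44), Trim54 (-1.25), Fbxo40 (-1.02) and Fbxo32. Fbxo32, the atrophy ligase atrogin-1, was at -1.19 in RNA and -1.43 in RPF, and Trim63, the atrophy ligase MuRF1, at -0.42 and -0.38. The median of the 14 ligases in RNA was -0.38, near the -0.40 of the partners and above the -0.62 of the standard subunits. As deposited these medians were 0.32, 0.29 and 0.08.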

How the data were processed

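Heart and TA of C57BL/6J mice were each measured by 1 RPF and 1 RNA library. The deposited values are RPM, per the file headers, and cover the coding sequence and both UTRs of a single transcript per gene; part lengths, given beside them, were used for values per kilobase. Per the submitters' processing notes, reads were handled with Bowtie and build mm9. The Bowtie version, trimming, the handling of reads with several matches and the rule for listing a gene were not given in the sources used here, and a gene that is not listed is not a 0.

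The authors' RPM were relative to coding reads, with sums of 993831 to 998118 per library. Low values were whole multiples of a step, the worth of 1 read, for 100% of values within 0.0051 RPM. The step lay between 0.035 RPM (TA RPF) and 0.107 RPM (heart RNA). Because values are rounded and RPF steps are small, the recovered RPF numbers are the less certain ones. Exact conditional intervals at 95% were computed from these reads and cover counting error only. A count test could not be fitted to groups of 1 library.

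Symbols with several rows took the row of highest summed coding value. Efficiency was the log2 ratio of RPF to RNA, with 0.1 RPM added to each, minus its median over genes with RNA of at least 1 RPM. Tissue differences were log2 ratios of heart to TA with the same addition, minus their median over genes whose RNA averaged at least 1 RPM, and efficiency differences needed RNA of at least 1 RPM in both tissues. The added 0.1 RPM makes fold values of low genes too small. The rule of size was 2-fold, since no group had replicates. The 2 tissues' tables were normalized separately by the authors.

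The members and gene lists were chosen with earlier results of these data known. Named with values were members past 2-fold, the 3 highest and 3 lowest of each comparison, the extremes of each role, the catalytic subunits, Psme, Psmf1 and Psmg genes, and related genes past 2-fold. Upstream windows came from RefSeq (GRCm38.p6), with 36 members matched. Alternatives changed the pseudocount, the minimum, the rows, the centring, the 50 most abundant genes, coding length and the reads counted. Code was tested on simulated data. Versions were Python 3.11.15, pandas 2.3.3, numpy 2.4.6, matplotlib 3.10.9 and scipy 1.17.1.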

Additional observations from a re-analysis of the deposited data

Results flagged for a closer look

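Psmb7 was the member whose efficiency lay on opposite sides of the median gene in the tissues, with intervals that did not hold 0 in either. It was at -0.16 in heart (-0.24 to -0.08) and 0.23 in TA (0.18 to 0.29), a difference of -0.40. Without removal of the median gene both values were below 0, at -0.60 in heart and -0.03 in TA. The difference was not tested between replicates, since each tissue had 1 library of each kind.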

How the results depend on the processing

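Of 133 summary values recomputed under the alternatives, 109 stayed within their limits and 23 moved. Another 1, with limits that did not hold 0, changed sign. Sign changes within limits that held 0 were not counted, such as the median efficiency difference, -0.005 and with no minimum 0.018. Of 286 values of members past 2-fold in a comparison 213 stayed, 73 moved and none changed sign. Members within 2-fold were not part of that count, and some change sign without removal of the median gene (Psma1 in RNA from -0.19 to 0.51, Psma7 in RPF from -0.13 to 0.47). Without removal of the median gene, the RNA median of members turned from -0.52 to 0.17, with 4 members higher and 0 lower in heart. The RPF median was then -0.011, with 5 higher and 0 lower. The efficiency medians were then 0.20 in heart and 0.21 in TA, with 4 higher in each. By 2-fold, 1 member (Psmg3) then had a lower efficiency in heart than in TA, where 4.80% of genes did. With the coding length trend removed, the efficiency medians were 0.28 and 0.28, and in TA 5 were higher and 1 lower, where 13.5% and 17.4% of genes were. The count of members lower in TA efficiency was also 1 with a pseudocount of 1 and with a minimum of 5 RPM. Of all genes, 15.9% and 19.9% were lower there. With a pseudocount of 1, 3 members were lower in heart RPF, where 9.89% of genes were. From all reads of the transcript, the SD of log2 RPF per kilobase was 0.61 in heart and 0.67 in TA. The share of Psmb8 was then 8.61% in heart RPF, 3.72% in TA RNA and 3.30% in TA RPF, and that of Psmb10 2.06% in TA RPF. Apart from what each alternative changes by construction, the cause was not tested. No paired analysis was possible because each group had 1 library and the labels carry no replicate numbers. Depth limits Psmc3ip, Psmg3, Psmg4, Psmb8 and Psmb9, whose RNA rested on 21 to 72 reads.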

Other observations

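Among the partners of the proteasome, the efficiencies past 2-fold lay on both sides of the median gene. Above the median gene were the ubiquitin shuttle Ubqln2, at 2.17 in heart and 2.27 in TA, Akirin2 at 1.70 in heart and Adrm1 at 1.07 in TA. Below it were the proteasome-bound ligase Ube3c (-1.46 in heart and -1.32 in TA), AI314180 (-1.32 and -1.24), Nfe2l1 (-1.28 and -1.53) and Zfand2a (-1.27 and -1.54), with the ligase Ube3a at -1.15 in TA. Of the 22 partners tested, 2 were higher and 4 lower in heart, where 16% and 17.8% of all genes were, and 2 were higher and 5 lower in TA, where 15.4% and 18.7% were. The lower counts are near those shares.

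Of the 14 muscle ubiquitin ligases, 4 were at least 2-fold higher in efficiency and 2 lower in heart, and 3 were higher and 3 lower in TA, beside the same shares of all genes. Trim54 (1.68 in heart and 1.61 in TA), Trim63 (1.36 and 1.23) and Fbxl22 (1.94 and 1.27) were above it by over 2-fold in both tissues, and Asb2 was at 1.22 in heart. Traf6 (-1.97 and -1.75) and Mdm2 (-1.42 and -1.62) were below the median gene by over 2-fold in both, and Cul3 was at -1.37 in TA. Of the 11 antigen-processing genes tested, B2m (2.30 in heart and 2.73 in TA), H2-K1 (1.81 and 2.25), Tapbp (1.58 and 1.59) and Tap2 (1.33 and 1.47) were high in both tissues, Irf1 was at 1.03 in TA, and Nlrc5, the activator of MHC class I genes, was at -1.02 in heart.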
